A study of Homo sapiens with 12 samples.

Results

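The change that SRSF2 over-expression made to each gene was compared between 2 lung cancer cell lines, A549 and H1650. The measure was the interaction, the log2 change with SRSF2 in A549 minus the log2 change with SRSF2 in H1650, so a positive value means that the gene rose more, or fell less, in A549. The deposited counts cover 16599 genes, of which 15991 were tested, and 7601 of them (47.5%) had an interaction with an edgeR adjusted p under 0.05. The genes described here are the 5926 of these 7601 that moved in opposite directions in the lines (955 genes) or were called in 1 line only (640 in A549 and 4331 in H1650). A further 1489 genes moved the same way in both lines by different amounts, and 186 were called in neither line taken singly.

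SRSF2 is a serine and arginine rich splicing factor. It binds short sequences in exons and helps to place the splicing machinery at nearby splice sites, and it has also been linked to the release of paused RNA polymerase at gene starts. Both lines are established from human lung adenocarcinoma, and H1650 carries an activating deletion in EGFR. The 4 groups were untreated A549, SRSF2 over-expressing A549, untreated H1650 and SRSF2 over-expressing H1650, with 3 libraries of polyadenylated RNA in each. How SRSF2 was over-expressed, for how long, and whether the untreated cells carried an empty construct is not given in the sources used here, and the titles of the untreated libraries carry the letters NC without explanation. SRSF2 transcripts themselves were not analysed here. Nothing in the labels says that the replicates came from separate cultures, so the p-values measure the spread between these libraries, which may be technical. In these bulk samples fewer cells of a type and less RNA per cell cannot be told apart.

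Total counts per library ran from 23876899 to 32079027. The spread among replicates, as edgeR's biological coefficient of variation, came to 0.056 in SRSF2 H1650 and to between 0.0298 and 0.0343 in the other groups, so the SRSF2 libraries of H1650 differed most among themselves. The table favours A549: 0 of its genes were at 0 in every A549 library and 136 were at 0 in every H1650 library. Genes expressed in H1650 alone can therefore be missing from all counts below. The summed level of 6 epithelial markers (EPCAM, KRT7, KRT8, KRT18, KRT19 and CDH1) lay between 9325 and 10460 CPM (counts relative to the scaled library total) in every library. Among markers of other cell types, COL1A1 and COL3A1 of fibroblasts summed to between 8.63 and 22.7 CPM and the monocyte marker CD14 to between 0.218 and 6.58 CPM. Their part in the results below was not tested.

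SRSF2 changed more genes in H1650 than in A549. In A549 5162 genes (32.3% of those tested) were called against untreated cells, and in H1650 9956 genes (62.3%). By sign, the interaction was called in 3843 genes (24%) whose change was higher in A549 and 3758 genes (23.5%) whose change was lower in A549. This near balance depends on the scaling: the counts were 4668 and 3102 with plain library totals, 4547 and 3262 on log2(FPKM + 1), and 4566 and 3119 on log2(FPKM + 0.1). Large interactions leaned towards the lower change in A549. At an interaction of at least 1 on the log2 scale 594 genes had the higher change in A549 and 886 the lower, and at 2 or more the counts were 79 and 259. The interaction and both single-line contrasts use the same untreated libraries, so these counts are 1 set of measurements seen in 3 ways.

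**Figure D1:**
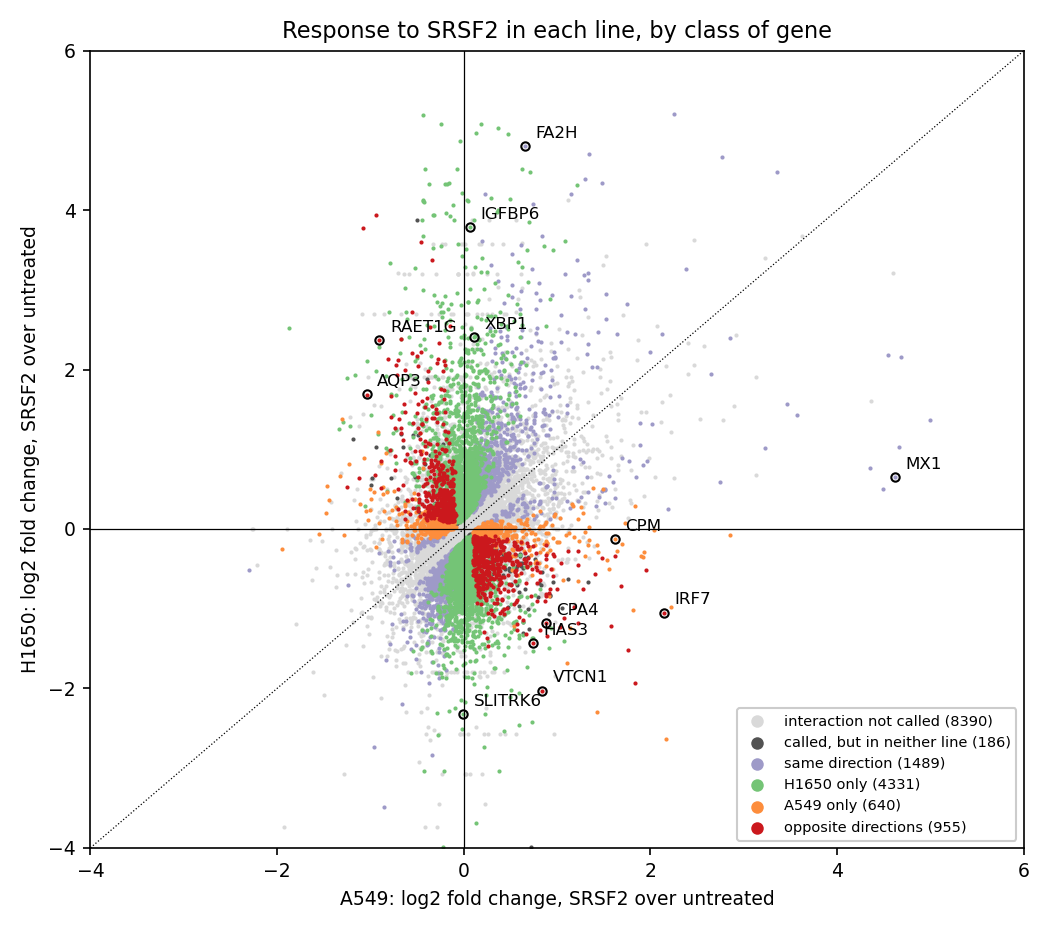
Each point is 1 of the 15991 genes tested, with the log2 fold change of SRSF2 over untreated cells in A549 on the horizontal axis and in H1650 on the vertical axis, coloured by class; 4 genes lie outside the range of -4 to 6. The red points in the upper left and lower right are the 955 genes that moved in opposite directions, the green points along the vertical axis are the 4331 genes called in H1650 only, and the dotted line marks equal change.

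Genes called in opposite directions made up 5.97% of those tested. In 501 of them the gene rose in A549 and fell in H1650, and in 454 it fell in A549 and rose in H1650. Most of these changes were small: 139 and 100 genes reached a log2 change of 0.32 in each line, the size used below to pick examples. On log2(FPKM + 1), where genes of low FPKM change less, 19 and 7 did. Just inside this limit lay FBXO36 (log2 0.323 in A549 and -1.09 in H1650), and just outside it FRMD4A (log2 0.321 in A549 and -0.516 in H1650). In 220 of these 239 genes the SRSF2 libraries did not overlap the untreated libraries in either line, as in 5251 of all 15991 genes tested. The 239 were chosen by calls in both lines from the same libraries, so this is no separate support.

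Among the genes that rose in A549 and fell in H1650, the largest change in A549 of the named genes belonged to IRF7, a transcription factor that drives type I interferon production (GRCh38 chr11:612553-615999). Its level in A549 was 4.57, 3.32 and 4.26 CPM in untreated libraries and 18.1, 16.4 and 19.2 CPM with SRSF2. In H1650 the gene was low, with 39, 24 and 38 counts in untreated libraries (1.1 ± 0.261 CPM, mean ± SD) and 10, 14 and 20 counts with SRSF2 (0.524 ± 0.127 CPM). The groups did not overlap in either line, which was a condition for naming a gene of this pattern (interaction log2 3.19, SE 0.30, edgeR adjusted p = 9.18e-11).

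ABCA1, the transporter that exports cellular cholesterol to lipoproteins (GRCh38 chr9:104781002-104928237), stood at 20.4, 22.9 and 23.5 CPM in untreated A549 and at 44.3, 39.98 and 42.9 CPM with SRSF2. In H1650 the values were 58.3, 58.5 and 59.2 CPM and, with SRSF2, 34.6, 34.5 and 35.6 CPM. Untreated H1650 thus had more than untreated A549, and after SRSF2 the order of the lines was the other way round (interaction log2 1.68, SE 0.08, edgeR adjusted p = 2.86e-18). HAS3, an enzyme that makes hyaluronan (GRCh38 chr16:69105564-69118719), gave 29.7, 26.8 and 25.4 CPM in untreated A549 and 46.7, 46 and 44 CPM with SRSF2. In H1650 it went from 117, 109.8 and 118 CPM to 42.8, 45.5 and 39.6 CPM, so that the lines, far apart when untreated, overlapped with SRSF2 (interaction log2 2.17, SE 0.08, edgeR adjusted p = 3.19e-21).

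PMP22, a tetraspan membrane protein first known from peripheral myelin (GRCh38 chr17:15229777-15265357), was the reverse case in its untreated level, which was higher in A549. Its libraries read 106, 101 and 100.5 CPM in untreated A549 and 179, 184 and 178 CPM with SRSF2, and 20.5, 19.8 and 19.3 CPM and 11.9, 12.4 and 13.8 CPM in H1650. SRSF2 widened this gap (interaction log2 1.46, SE 0.08, edgeR adjusted p = 4.20e-17). CPA4, a secreted carboxypeptidase, rose from 7.55 ± 0.587 to 13.9 ± 1.09 CPM in A549 (mean ± SD, n = 3) and fell from 425 ± 15.3 to 187 ± 8.28 CPM in H1650 (interaction log2 2.06, SE 0.09, edgeR adjusted p = 2.07e-19). KIRREL3, an adhesion molecule of the immunoglobulin family, rose from 14.7 ± 2.35 to 25.2 ± 2.46 CPM and fell from 10.8 ± 1.04 to 5.79 ± 0.47 CPM in the same order of lines (interaction log2 1.68, SE 0.15, edgeR adjusted p = 1.73e-11). No SRSF2 library of these genes overlapped the untreated libraries of its own line, but the genes were picked on that condition.

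Immune and cell death regulators were also among the named genes of this pattern. VTCN1, the inhibitory T cell ligand B7-H4, fell from 40.5 ± 2.62 to 9.88 ± 0.865 CPM in H1650 and rose from 0.486 ± 0.138 to 0.874 ± 0.126 CPM in A549, where the libraries held 42 counts untreated and 69 with SRSF2. BMF, which promotes apoptosis by binding BCL2 proteins, rose from 2.16 ± 0.378 to 3.97 ± 0.459 CPM in A549 and fell from 8.68 ± 1.46 to 4.89 ± 0.498 CPM in H1650 (interaction log2 1.70, SE 0.22, edgeR adjusted p = 5.27e-08). The lysolipid-responsive receptor GPR132 rose to 2 ± 0.525 CPM in A549 from 0.821 ± 0.163 and fell to 8.57 ± 0.655 CPM in H1650 from 14.5 ± 2.1. The noncoding RNA LINC02870 completed the 10 genes (interaction log2 1.55).

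In the other direction AQP3, a channel for water and glycerol (GRCh38 chr9:33441154-33447633), had the largest paired change. In A549 it was at 33.6, 35.4 and 36.9 CPM untreated and at 15.2, 16.1 and 20.2 CPM with SRSF2. In H1650 it was at 3.28, 2.95 and 2.81 CPM and rose to 6.73, 10.2 and 11.9 CPM. SRSF2 A549 still had more AQP3 than SRSF2 H1650 in every library, but the distance between the lines had shrunk (interaction log2 -2.73, SE 0.18, edgeR adjusted p = 2.25e-14).

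CRB3, a small transmembrane protein of the Crumbs complex that sets apical polarity in epithelia (GRCh38 chr19:6463777-6467221), started alike in the lines. Untreated libraries gave 3.14, 2.83 and 3.61 CPM in A549 and 2.86, 2.61 and 2.61 CPM in H1650. With SRSF2 they gave 1.55, 1.77 and 2.24 CPM in A549 and 6.85, 8.28 and 6.39 CPM in H1650, so the lines parted (interaction log2 -2.19, SE 0.23, edgeR adjusted p = 8.88e-10). RAET1G, a stress-induced ligand of the natural killer cell receptor NKG2D (GRCh38 chr6:149916878-149923121), was somewhat higher in untreated H1650, at 3.12, 3.18 and 2.18 CPM, than in untreated A549, at 2.41, 1.48 and 1.67 CPM. With SRSF2 it was at 0.49, 1.18 and 1.26 CPM in A549 and at 14.5, 14.7 and 14.8 CPM in H1650 (interaction log2 -3.28, SE 0.29, edgeR adjusted p = 1.96e-11).

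RASAL1, which switches RAS off by stimulating its GTPase activity, fell from 1.81 ± 0.137 to 0.968 ± 0.211 CPM in A549 and rose from 3.34 ± 0.118 to 6.04 ± 0.466 CPM in H1650 (interaction log2 -1.74, SE 0.26, edgeR adjusted p = 7.39e-07). EFHD1, a mitochondrial calcium-binding protein, moved from 3.57 ± 0.22 to 2.15 ± 0.47 CPM in A549 and from 72.7 ± 3.19 to 121 ± 4.95 CPM in H1650 (interaction log2 -1.47, SE 0.15, edgeR adjusted p = 4.17e-10). KIAA0040 fell from 2.18 ± 0.135 to 1.26 ± 0.0699 CPM in A549 and rose from 86.4 ± 4.17 to 172 ± 12.3 CPM in H1650. In all 3 the higher untreated level was in the line where the gene rose.

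The other 4 genes of this direction were close to absent from untreated H1650, and their rises there rest on few counts. PLA2G4A, the cytosolic phospholipase that releases arachidonic acid, fell from 111 ± 4.23 to 68.1 ± 3.9 CPM in A549 (log2 -0.70, SE 0.05), while the 3 H1650 libraries held 3 counts in all untreated and 13 with SRSF2. SOX8, a developmental transcription factor, fell from 5.89 ± 0.404 to 3.08 ± 0.482 CPM in A549 and went from 2 to 33 counts in H1650. For LGR6, a receptor for R-spondins, A549 fell from 17.6 ± 1.52 to 10.6 ± 0.122 CPM and H1650 held 15 and 58 counts. For ST8SIA4, which builds polysialic acid, A549 fell from 29.3 ± 0.331 to 17.6 ± 1.76 CPM and H1650 held 50 and 110 counts. The size of the H1650 rise is therefore not given for them.

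**Figure D2:**
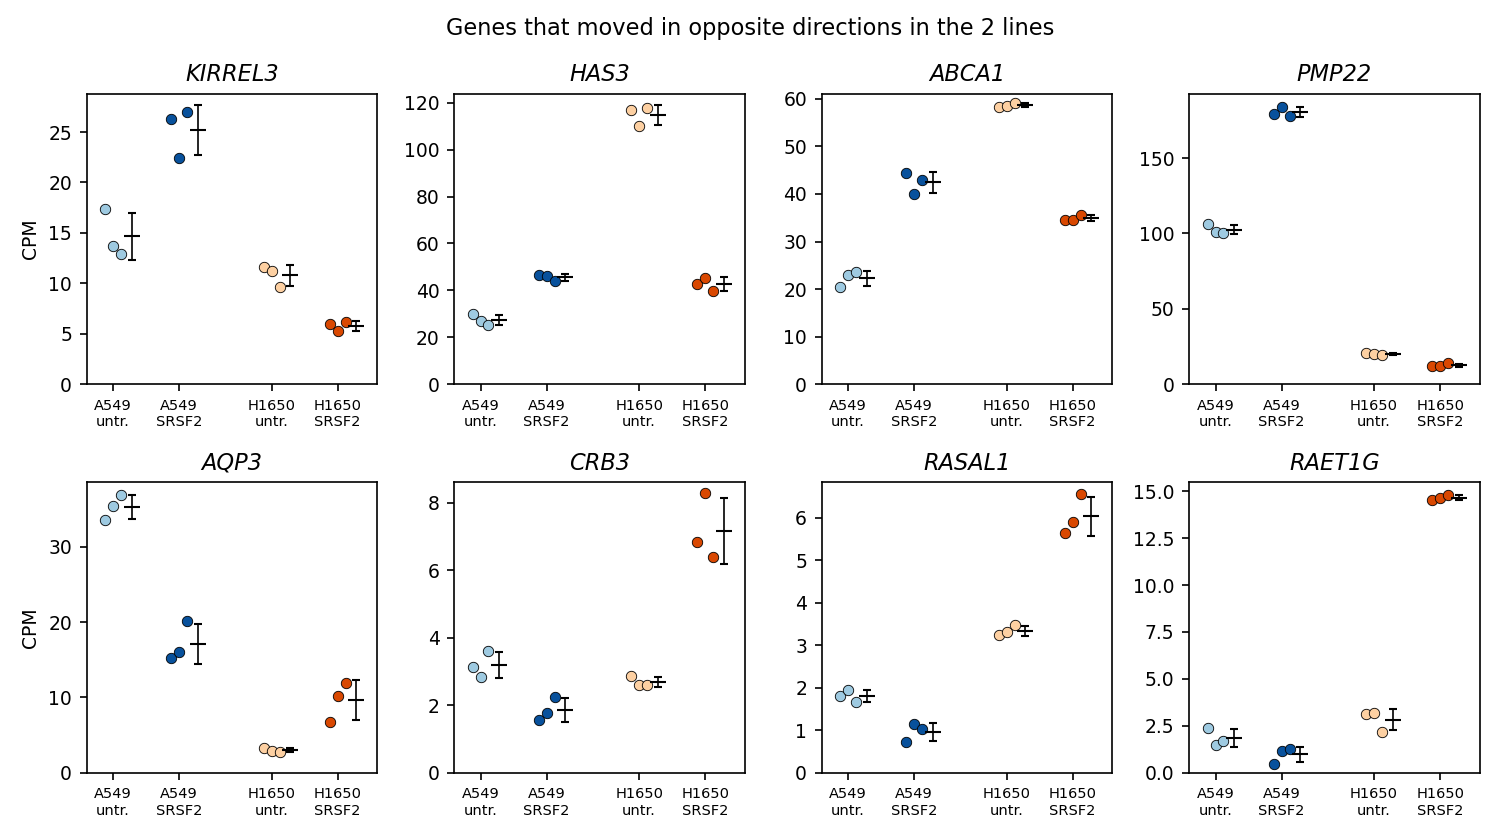
Each panel shows 1 gene, with the CPM of every library on an axis from 0, a short line for the mean and whiskers for the SD of 3 libraries. The upper 4 genes rose with SRSF2 in A549 and fell in H1650, and the lower 4 fell in A549 and rose in H1650. No SRSF2 group overlaps the untreated group of its line, which was a condition for naming these genes.

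A response in A549 only, called in A549 and for the interaction but not in H1650, was found for 640 genes, 4% of those tested (306 rose and 334 fell). A missed threshold does not show that a gene stayed the same in H1650. For 477 of them the 95% interval of the H1650 change also lay within 0.32 of 0 on the log2 scale, and the named genes come from these (211 up, 266 down). Which genes fall here depends on the scaling of the libraries: with plain library totals in place of trimmed-mean scaling the count was 456, and 211 genes were in both. The responses within this bound were modest: 22 of those that rose did so by 1.5-fold or more, and 8 of those that fell did so by as much. The bound left out most genes of low count. In untreated A549 1 of the 477 was under 1 CPM, against 49 of the 640.

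The largest rise among the named genes of A549 only was that of CPM, the gene of the cell-surface enzyme carboxypeptidase M (GRCh38 chr12:68842197-68971570; the unit CPM has the same letters). Untreated A549 libraries read 7.01, 7 and 7.32 and SRSF2 libraries 20.9, 22.9 and 21.5 in the unit CPM. In H1650 the values were 34.9, 36.5 and 34.2 and 30.3, 32 and 34.1, groups that did not overlap but whose difference missed the threshold (log2 -0.13, SE 0.06, 95% interval -0.25 to -0.01, edgeR adjusted p = 0.0595). A549 thus moved towards the level that H1650 held with and without SRSF2 (interaction log2 1.75, SE 0.10, edgeR adjusted p = 2.56e-16).

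The same arrangement, a rise in A549 beneath a higher level in H1650 that was not called as changed, held for 4 further genes. LYST, a regulator of lysosomal trafficking (GRCh38 chr1:235661041-235883640), had 18.3, 18.9 and 17.9 CPM in untreated A549 and 32.9, 32.6 and 31.1 CPM with SRSF2, against 48.1, 46.1 and 47.8 and 49.9, 48.5 and 47.7 CPM in H1650, where the groups overlapped (interaction log2 0.77, SE 0.08, edgeR adjusted p = 2.86e-10). MUC1, a membrane mucin of epithelia, rose from 3.04 ± 0.129 to 5.31 ± 0.253 CPM in A549 and measured 51.3 ± 0.958 and 51.5 ± 2.08 CPM in H1650 (interaction log2 0.80, SE 0.12, edgeR adjusted p = 1.44e-06). NEXN, an actin-binding protein, rose from 6.46 ± 0.134 to 11.9 ± 1.94 CPM beside 31.4 ± 0.904 and 28.5 ± 3.32 CPM, and the peptide hormone gene ADM2 from 1.1 ± 0.299 to 2.12 ± 0.146 CPM beside 15.2 ± 1.96 and 15.7 ± 1.14 CPM. NALCN, a sodium leak channel, differed in that A549 had the higher untreated level: it rose from 14.5 ± 0.173 to 26.8 ± 1.65 CPM, and H1650 measured 6.03 ± 0.689 and 5.83 ± 0.405 CPM. MROH6 rose from 22.8 ± 3.86 to 48.8 ± 2.1 CPM. The antisense transcript MHENCR rose from 6.34 ± 0.206 to 14.8 ± 1.41 CPM, a value that is uncertain, since the sources do not say whether counting used strand.

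Of the genes that fell in A549 only, EGLN3, a prolyl hydroxylase that marks hypoxia-inducible factor for destruction (GRCh38 chr14:33924231-34462774), had 18.8, 20.8 and 22.4 CPM untreated and 10.9, 9.35 and 13.6 CPM with SRSF2. H1650 read 36.6, 35.5 and 36.4 CPM and 32.5, 33.4 and 33.3 CPM, a difference within the interval used here (log2 -0.13, SE 0.07, 95% interval -0.28 to 0.02; interaction log2 -0.75, SE 0.11, edgeR adjusted p = 1.46e-06). PTPN6, the tyrosine phosphatase SHP-1 (GRCh38 chr12:6946468-6961316), had 41.4, 42.8 and 40.7 CPM in untreated A549 and 23.8, 27 and 28.3 CPM with SRSF2. Its H1650 values of 22.4, 21.2 and 20.9 and 17.2, 19.7 and 20.8 CPM leaned the same way without passing the threshold (edgeR adjusted p = 0.056; interaction log2 -0.50, SE 0.10, edgeR adjusted p = 7.12e-05).

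ZNF467, a zinc finger protein, fell from 9.05 ± 0.286 to 4.86 ± 0.769 CPM in A549 and measured 57.4 ± 1.77 and 60.4 ± 1.01 CPM in H1650 (interaction log2 -0.98, SE 0.11, edgeR adjusted p = 4.72e-09). XYLT1, which starts the sugar chains of proteoglycans, fell from 7.87 ± 0.118 to 5.18 ± 0.0986 CPM beside 85 ± 1.97 and 80.9 ± 3.62 CPM. The cadherin CDH24 fell from 23.8 ± 0.977 to 15.6 ± 1.18 CPM and TPD52L1 from 9.81 ± 0.8 to 6.22 ± 0.605 CPM. SPTLC3, a subunit of serine palmitoyltransferase, fell from 1.22 ± 0.172 to 0.797 ± 0.196 CPM and IQCA1 from 0.716 ± 0.185 to 0.243 ± 0.125 CPM, the last from 62 counts to 19. Both were at over 11 CPM in every H1650 group, so SRSF2 lowered them further in the line that had less. On the log2(FPKM + 1) scale the interaction was not called for EGLN3, TPD52L1 and SPTLC3, and its sign turned for IQCA1 and XYLT1. That scale flattens low FPKM values. The deposited FPKM divides by the genomic span for 71.4% of the genes compared. Genes with a long span, EGLN3 and XYLT1 among them, can thus be low in FPKM without being low in CPM, which was not tested. The call for SPTLC3 was also lost at an adjusted p under 0.01 and without the first (log2 -0.622) or the second (log2 -0.588) untreated or the second SRSF2 library (log2 -0.476) of A549.

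A response in H1650 only was found for 4331 genes, 27.1% of those tested (2130 rose and 2201 fell). For 3064 of them the interval of the A549 change lay within the same bound, 1417 with a rise and 1647 with a fall in H1650. Of these, 102 rose and 89 fell by at least 2-fold, against 3 and 1 for the responses of A549 only. H1650 thus held more, and larger, responses of its own than A549. The fit shared 1 estimate of the spread, although the SRSF2 libraries of H1650 varied most. With each line fitted alone, 3949 genes were called in H1650 only and 751 in A549 only. With limma on counts weighted by group the numbers were 3934 and 743.

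IGFBP6, which binds insulin-like growth factor 2 (GRCh38 chr12:53097436-53102345), rose from a low to a high level. H1650 read 5.14, 5.32 and 5.06 CPM untreated and 68.3, 75.7 and 70.8 CPM with SRSF2. A549 read 74.8, 76.2 and 78 CPM and 81.4, 81 and 76.9 CPM, groups that overlapped (log2 0.06, SE 0.05, 95% interval -0.03 to 0.16). SRSF2 took H1650 up to about the level that A549 had throughout (interaction log2 -3.73, SE 0.08, edgeR adjusted p = 3.88e-27). XBP1, the transcription factor of the unfolded protein response (GRCh38 chr22:28794555-28800597), rose in H1650 from 113, 117 and 114 CPM to 689, 621 and 509.98 CPM. In A549 it measured 61.6, 62.9 and 65.5 CPM untreated and 71.7, 62.7 and 70.8 CPM with SRSF2 (95% interval -0.03 to 0.25), so here the rise carried H1650 away from A549 (interaction log2 -2.29, SE 0.09, edgeR adjusted p = 3.76e-20).

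Smaller amounts were involved in the other rises, and all had their higher untreated level in A549. TNFSF9, the ligand of the T cell receptor 4-1BB, rose in H1650 from 1.23 ± 0.2 to 6.58 ± 0.634 CPM and measured 16.2 ± 0.281 and 17.6 ± 1.03 CPM in A549 (interaction log2 -2.31, SE 0.17, edgeR adjusted p = 1.77e-13). FOXQ1, a forkhead transcription factor, went from 23 to 227 counts over the 3 H1650 libraries, ABCC8, the sulfonylurea receptor, from 12 to 128, and the zinc finger gene ZNF711 from 14 to 93. A549 held between 532 and 625 counts of each of these 3 genes in either group. TPPP3, a tubulin-binding protein, had 0, 0 and 0 counts in untreated H1650 and 3, 1 and 4 with SRSF2, and CAVIN2, a component of caveolae, had 2, 0 and 0 and then 3, 4 and 5. At such counts the H1650 change of TPPP3 and CAVIN2 has no usable size, although both passed the test. With log2(FPKM + 1) the interactions of ABCC8, ZNF711, TPPP3 and CAVIN2 lost their call, and that of CAVIN2 turned in sign. CAVIN2 also lost its call at an adjusted p under 0.01 and without the second (log2 -1.935) or the third (log2 -1.928) untreated library of H1650.

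Among the genes that fell in H1650 only, FAT1, a giant protocadherin (GRCh38 chr4:186587783-186726722), started level in the lines. Untreated libraries read 742, 834 and 802 CPM in A549 and 782, 752 and 749.6 CPM in H1650. With SRSF2 A549 read 819, 854 and 864 CPM and H1650 302, 248 and 269.8 CPM (interaction log2 1.57, SE 0.07, edgeR adjusted p = 9.54e-20). ELOVL6, which lengthens long-chain fatty acids (GRCh38 chr4:110045846-110199199), fell in H1650 from 62.7, 63.2 and 62.6 CPM to 21.7, 23 and 23.3 CPM. In A549 its groups overlapped, at 32.4, 31.1 and 34.4 CPM and 34.9, 30.8 and 33.1 CPM (interaction log2 1.48, SE 0.08, edgeR adjusted p = 1.21e-16).

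SLITRK6, a neuronal membrane protein, fell in H1650 from 22.7 ± 1.44 to 4.53 ± 0.473 CPM, to the level of A549 (4.66 ± 0.446 and 4.65 ± 0.293 CPM). SORL1, a sorting receptor of endosomes, fell from 154 ± 1.75 to 52.2 ± 3.73 CPM beside 38.3 ± 1.75 and 35.2 ± 0.511 CPM in A549, and the sialyltransferase gene ST3GAL1 from 276 ± 10.9 to 105 ± 4.72 CPM beside 91.3 ± 2.16 and 97.1 ± 3.54 CPM. In these 3 the fall brought H1650 closer to A549. In ARHGEF19, a guanine nucleotide exchange factor (18.7 ± 0.258 to 3.9 ± 0.619 CPM), NEK6, a mitotic kinase (91.7 ± 1.07 to 34.6 ± 1.15 CPM), and CLMN (66 ± 0.894 to 24.6 ± 2.15 CPM) it left H1650 below A549. Their interactions ran from 1.33 for NEK6 to 2.31 for SLITRK6 on the log2 scale.

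**Figure D3:**
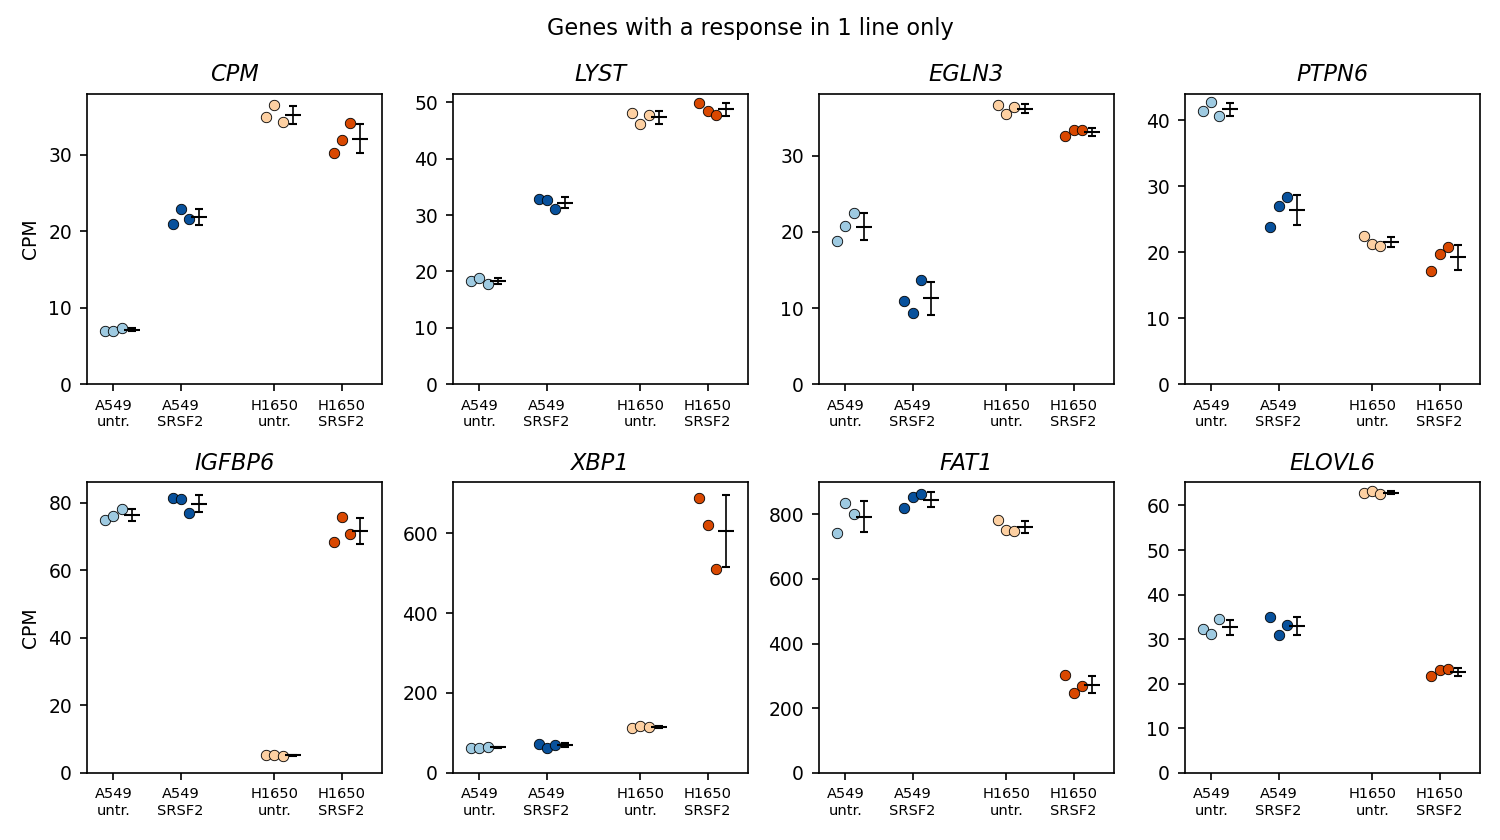
Each panel shows 1 gene, with the CPM of every library on an axis from 0, a short line for the mean and whiskers for the SD of 3 libraries. The upper 4 genes were called in A549 only, 2 up and 2 down, and the lower 4 in H1650 only, 2 up and 2 down; IGFBP6 in SRSF2 H1650 (68.3 to 75.7 CPM) reached about the level of A549 (74.8 to 81.4 CPM).

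In 1489 genes the response had the same sign in both lines and differed in size. For rises H1650 more often had the larger one, in 700 genes against 106, and for falls likewise, in 626 against 57. PERM1, a regulator of mitochondrial gene expression in muscle, rose in A549 from 0.231 ± 0.0681 to 5.98 ± 0.153 CPM and in H1650 from 2.83 ± 0.664 to 5.77 ± 0.351 CPM, ending level in the lines (interaction log2 3.64, SE 0.32, edgeR adjusted p = 1.07e-11). FA2H, which hydroxylates fatty acids of sphingolipids, rose in H1650 from 2.22 ± 0.577 to 61.9 ± 4.36 CPM and in A549 from 43.4 ± 1.41 to 68.3 ± 2.2 CPM (interaction log2 -4.15, SE 0.12, edgeR adjusted p = 2.69e-24). ZC3HAV1, an antiviral protein that binds foreign RNA, rose from 179 ± 5.62 to 2187 ± 295 CPM in H1650 and only from 147 ± 7.63 to 169 ± 3.98 CPM in A549 (interaction log2 -3.42, SE 0.08, edgeR adjusted p = 1.23e-26).

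Groups of genes with a known role differed in how they split between the lines. Across all genes tested the median interaction was 0.006, and the counts of called interactions below are to be read beside the 47.5% of all genes that were called. DNA replication genes fell in A549, and part of them rose in H1650. Of 39 tested replication genes and E2F targets, 28 had a called interaction, 23 with the lower change in A549 and 5 with the higher, and the median interaction was -0.273. In 11 of the 39 the gene fell in A549 and rose in H1650 (2.84% of all genes did). In 0 it did the reverse (3.13% of all genes). Both lines reached log2 0.32 in 1 of the 11. A further 7 fell in A549 only, beside 2.09% of all genes.

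These 11 were the origin recognition genes ORC1 and ORC6, the licensing factors CDC6 and CDT1, the helicase genes MCM2, MCM7, MCM10 and GINS3, the clamp loader subunit RFC3, the cyclin gene CCNE1 and thymidine kinase TK1. CDC6, which loads the replicative helicase, had 150.5, 145 and 142 CPM in untreated A549 and 134, 130.4 and 122 CPM with SRSF2. In H1650 it had 102, 99.3 and 96.8 CPM and 158, 143 and 158 CPM, with no overlap in either line (interaction log2 -0.80, SE 0.06, edgeR adjusted p = 8.10e-13). MCM7, a subunit of that helicase, fell from 495 ± 10.1 to 415 ± 6.74 CPM in A549 and rose from 242 ± 6.26 to 285 ± 0.56 CPM in H1650 (interaction log2 -0.49, SE 0.05, edgeR adjusted p = 2.39e-10). ORC6 rose from 61.3 ± 1.38 to 110.5 ± 2.56 CPM in H1650, while in A549 its groups overlapped at 54.4, 51.8 and 48.7 and 51.8, 45.5 and 41.5 CPM. MCM10 fell from 102 ± 4.91 to 77.7 ± 4.03 CPM in A549 and rose from 74.6 ± 0.924 to 95.2 ± 3.27 CPM in H1650. The fall in A549 was shared by E2F1, the transcription factor that drives these genes, from 103 ± 3.54 to 60.9 ± 3.73 CPM, with a smaller fall in H1650 from 197 ± 6.46 to 176 ± 6.31 CPM (interaction log2 -0.60, SE 0.06, edgeR adjusted p = 1.09e-09). The group did not move as 1 block in H1650, where 12 of its genes rose and 18 fell. Of all genes 62.3% were called in H1650, in either direction. PCNA (log2 -0.44 in A549 and -0.46 in H1650) and TYMS (log2 -0.24 and -0.32) fell in both.

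Promoter windows of 250 bases before to 50 bases after the gene start were taken from RefSeq (GRCh38.p14) and matched to 11242 of 14660 tested genes that have a symbol. The letters TTTNNCGC, an E2F-like motif read on both strands, were in 21 of the 34 replication windows (61.8%) and in 10.1% of all windows. Of the 11 replication genes that moved in opposite directions 7 held it. A match is a run of letters and not a shown binding site. The windows of 3 of these genes are printed 5′ to 3′ on the strand of the gene, because they carry the motif and moved in opposite directions in the lines, with the motif in capitals. CDC6 lies at chr17:40287629-40287928, plus strand, ORC6 at chr16:46689409-46689708, plus strand and MCM7 at chr7:100101348-100101647, minus strand.
CDC6: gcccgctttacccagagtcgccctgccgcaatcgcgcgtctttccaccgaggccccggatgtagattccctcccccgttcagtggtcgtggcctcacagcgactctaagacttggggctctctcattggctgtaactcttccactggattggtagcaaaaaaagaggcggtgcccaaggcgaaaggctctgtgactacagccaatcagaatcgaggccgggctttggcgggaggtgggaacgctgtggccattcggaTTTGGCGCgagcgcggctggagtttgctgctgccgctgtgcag
ORC6: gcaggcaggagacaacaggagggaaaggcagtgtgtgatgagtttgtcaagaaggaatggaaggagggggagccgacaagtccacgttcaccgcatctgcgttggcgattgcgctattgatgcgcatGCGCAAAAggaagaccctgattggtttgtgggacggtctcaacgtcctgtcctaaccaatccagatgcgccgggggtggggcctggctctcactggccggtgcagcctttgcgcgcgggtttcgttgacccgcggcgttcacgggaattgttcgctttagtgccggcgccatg
MCM7: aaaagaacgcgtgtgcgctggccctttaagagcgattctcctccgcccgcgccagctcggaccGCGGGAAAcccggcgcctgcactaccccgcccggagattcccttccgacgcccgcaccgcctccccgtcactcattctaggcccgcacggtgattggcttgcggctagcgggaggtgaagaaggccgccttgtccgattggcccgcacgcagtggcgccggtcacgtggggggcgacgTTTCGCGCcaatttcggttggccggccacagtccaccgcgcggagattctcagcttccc

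Mitosis genes behaved otherwise. Of 40 tested, 33 had a called interaction, 26 of them with the higher change in A549. In 0 did the lines move in opposite directions, beside 5.97% of all genes. In each line 32 of the 40 were called as lower, with a median of -0.22 in A549 and -0.43 in H1650. Of all genes, 32.3% in A549 and 62.3% in H1650 were called in either direction. TOP2A, the topoisomerase that untangles chromosomes, fell from 782 ± 23.7 to 673 ± 17.3 CPM in A549 and from 250 ± 13.7 to 110.4 ± 16.5 CPM in H1650 (interaction log2 0.96, SE 0.08, edgeR adjusted p = 2.79e-12). The kinetochore gene CENPF fell from 337 ± 18 to 293 ± 2.28 CPM and from 214 ± 19.2 to 89.4 ± 4.08 CPM (interaction log2 1.06, SE 0.07, edgeR adjusted p = 6.67e-15). In H1650, replication genes that rose therefore stood beside mitosis genes that fell.

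Most interferon response genes rose in both lines but from different levels. All 31 tested were called as higher in A549, and in H1650 29 were higher and 2, IRF7 and the kinase gene EIF2AK2, were lower. Calls in either direction covered 32.3% of all genes in A549 and 62.3% in H1650. The interaction was called in 29 of them, 18 with the higher and 11 with the lower change in A549. Untreated H1650 had at least 2-fold more than untreated A549 in 29 of the 31. Their median level was 5.08 to 5.58 CPM in the untreated A549 libraries and 17.7 to 19.5 CPM with SRSF2, against 178 to 188 CPM and 344 to 361 CPM in H1650.

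MX1, a GTPase that blocks viruses (GRCh38 chr21:41420304-41459214), rose from 2.13, 1.13 and 1.57 CPM to 40.7, 39.7 and 38.8 CPM in A549 and from 1522 ± 40.1 to 2386 ± 59.5 CPM in H1650, so SRSF2 A549 remained far below untreated H1650 (interaction log2 3.97, SE 0.10, edgeR adjusted p = 1.58e-25). IFI44L had 1, 1 and 1 counts in untreated A549 and 18, 30 and 21 with SRSF2, beside 147 ± 1.85 and 208 ± 11.7 CPM in H1650. XAF1, an inhibitor of the apoptosis blocker XIAP, had 9 counts over the untreated A549 libraries and 175 with SRSF2, beside 180.4 ± 6.66 and 307 ± 19.98 CPM in H1650. Other members had the larger rise in H1650. The exonuclease gene ISG20 rose there from 28.6, 31.1 and 29.3 CPM to 381, 397 and 361 CPM and in A549 from 13.1 ± 0.331 to 23.4 ± 1.67 CPM (interaction log2 -2.84, SE 0.08, edgeR adjusted p = 5.82e-24). HERC5, which attaches the ubiquitin-like ISG15 to proteins, rose from 122 ± 6.23 to 831 ± 28.5 CPM in H1650 and from 9.56 ± 0.576 to 16.4 ± 0.832 CPM in A549 (interaction log2 -1.99, SE 0.08, edgeR adjusted p = 9.31e-20).

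The core of the interferon-stimulated response element, GAAANNGAA on either strand with overlapping matches allowed, was in 16 of 26 windows of these genes (61.5%) and in 6.17% of all windows. IFI44L and ISG20 both hold it and had interactions of opposite sign (3.99 and -2.84 on the log2 scale), so their windows are printed with the core in capitals. The sign for IFI44L turns on the log2(FPKM + 1) scale (-0.319), as does that for XAF1 (-0.482). IFI44L lies at chr1:78620198-78620497, plus strand and ISG20 at chr15:88638766-88639065, plus strand. In IFI44L the core occurs 2 times, from 164 and from 73 bases before the start, and in ISG20 1 time, from 69 bases before it.
IFI44L: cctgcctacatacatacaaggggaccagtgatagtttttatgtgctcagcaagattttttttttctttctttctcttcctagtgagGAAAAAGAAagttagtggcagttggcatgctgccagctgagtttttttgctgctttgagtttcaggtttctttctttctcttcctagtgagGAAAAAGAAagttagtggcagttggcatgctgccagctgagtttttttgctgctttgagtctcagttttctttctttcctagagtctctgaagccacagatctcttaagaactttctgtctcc
ISG20: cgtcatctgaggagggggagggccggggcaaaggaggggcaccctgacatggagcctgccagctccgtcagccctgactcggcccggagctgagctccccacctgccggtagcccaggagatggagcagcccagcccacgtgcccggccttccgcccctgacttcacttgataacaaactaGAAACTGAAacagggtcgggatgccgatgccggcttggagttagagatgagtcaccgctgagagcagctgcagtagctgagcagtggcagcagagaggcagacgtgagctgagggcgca

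Signal-induced genes more often had the larger rise in H1650. Of 32 tested NF-kB and cytokine genes 24 had a called interaction, 22 of them with the lower change in A549. The 9 called in H1650 only are a share near the 27.1% of all genes. CXCL2, a chemokine for neutrophils, rose in H1650 from 3.02, 2.81 and 3.21 CPM to 36.9, 34.5 and 27.7 CPM and in A549 from 20.9, 19.7 and 18.1 CPM to 27.4, 28.5 and 28.2 CPM (interaction log2 -2.93, SE 0.14, edgeR adjusted p = 1.71e-18). TNFAIP3, an inhibitor of NF-kB signalling, rose from 40.3 ± 1.95 to 294 ± 38.6 CPM in H1650 and from 21.5 ± 0.423 to 37.9 ± 1.52 CPM in A549 (interaction log2 -2.05, SE 0.10, edgeR adjusted p = 2.00e-18). SOD2, the mitochondrial superoxide dismutase, rose from 82.2 ± 3.5 to 382 ± 32.8 CPM and from 139 ± 1.71 to 184 ± 5.65 CPM in the same order.

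Immediate-early genes showed a called interaction in 20 of 21, 15 with the lower and 5 with the higher change in A549. KLF4, a zinc finger transcription factor, rose from 94 ± 5.95 to 745 ± 121 CPM in H1650 and from 23.5 ± 0.648 to 36 ± 1.64 CPM in A549 (interaction log2 -2.37, SE 0.11, edgeR adjusted p = 1.31e-18). ZFP36, which speeds the decay of AU-rich mRNAs, rose in H1650 only, from 63.3 ± 1.78 to 224 ± 12.2 CPM, beside 39.9 ± 3.81 and 43.3 ± 1.14 CPM in A549 with overlapping groups (interaction log2 -1.71, SE 0.08, edgeR adjusted p = 5.15e-19). EGR1 had the higher change in A549 (log2 4.69 in A549 and 2.16 in H1650). Histone genes had a called interaction in 10 of 13, all 10 with the lower change in A549, and a median of -1.11. H3-3B, which encodes the replacement histone H3.3, rose from 405 ± 9.08 to 1391 ± 134 CPM in H1650 and from 540.1 ± 11.6 to 601 ± 18.9 CPM in A549 (interaction log2 -1.62, SE 0.06, edgeR adjusted p = 1.07e-20). Histone genes are near-identical copies, so reads can be split among them. The libraries were of polyadenylated RNA, so these counts cover only the polyadenylated part of histone transcripts.

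Class I antigen presentation genes also rose by more in H1650, with a called interaction in 14 of 16, 13 of them with the lower change in A549. B2M, the small invariant subunit of those molecules, rose from 1209 ± 21.8 to 3340.5 ± 42.1 CPM in H1650 and from 190.04 ± 3.3 to 221 ± 2.04 CPM in A549. Proteasome subunits were called for the interaction in 16 of 26, 15 with the lower change in A549. In 13 of the 26 the response was in H1650 only, beside 27.1% of all genes. PSMC4, an ATPase subunit of the proteasome cap, rose from 168 ± 2.38 to 278 ± 14.1 CPM in H1650 and fell from 358 ± 12.2 to 334 ± 3.89 CPM in A549 (interaction log2 -0.83, SE 0.05, edgeR adjusted p = 1.00e-14).

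Lipid synthesis split in the other sense. Of 24 cholesterol synthesis genes 19 had a called interaction, 14 with the higher change in A549. In 6, among them INSIG1, LSS and SQLE, the gene rose in A549 and fell in H1650, beside 3.13% of all genes. Both lines reached log2 0.32 in 1 of the 6. LSS, which closes the sterol rings, had 61.6, 64.8 and 59.6 CPM in untreated A549 and 68.1, 73.4 and 72.9 CPM with SRSF2, and in H1650 136, 133 and 136 CPM and 84.4, 79 and 82.5 CPM (interaction log2 0.92, SE 0.06, edgeR adjusted p = 3.49e-14). INSIG1, which holds back the sterol sensor when cholesterol is plentiful, rose from 32.1 ± 0.774 to 49.2 ± 2.62 CPM in A549 and fell from 27 ± 1.53 to 18.5 ± 1.41 CPM in H1650 (interaction log2 1.16, SE 0.09, edgeR adjusted p = 6.75e-13). The pathway was not uniform: HMGCS1 rose by more in H1650 (log2 1.33) than in A549 (log2 0.67).

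All 14 fatty acid synthesis genes tested had a called interaction, 10 with the higher change in A549. In 7 of the 14 the response was in H1650 only, beside 27.1% of all genes. FASN, the fatty acid synthase, fell in H1650 from 652 ± 16.6 to 317 ± 8.76 CPM and measured 706 ± 29.7 and 693 ± 22.6 CPM in A549, where the groups overlapped (interaction log2 1.01, SE 0.05, edgeR adjusted p = 1.68e-17). The desaturase gene SCD fell from 443 ± 9.19 to 239.8 ± 11.5 CPM in H1650 beside 869 ± 53.2 and 858 ± 20.7 CPM in A549 (interaction log2 0.87, SE 0.06, edgeR adjusted p = 8.34e-15). ELOVL6, described above, acts on the product of FASN.

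Counts of genes that moved in opposite directions in the next groups are to be read beside the 5.97% of all genes. Of 21 actin and SRF genes 17 had a called interaction, 14 with the higher change in A549, and 7 moved in opposite directions, 6 of them (FHL2, FLNA, MYH9, TPM1, VCL and ZYX) with a rise in A549. These were small changes, and in 0 of the 7 did both lines reach log2 0.32. Of 18 integrin and laminin genes 3 moved in opposite directions, and again in 0 of them did both lines reach log2 0.32. VCL, which links actin to integrins and cadherins, rose from 423 ± 6.9 to 473 ± 9.69 CPM in A549 and fell from 727 ± 26.5 to 438 ± 24 CPM in H1650 (interaction log2 0.89, SE 0.05, edgeR adjusted p = 1.11e-15). The sequence CArG box, the site of SRF, was found in 6 of 19 windows of the group and in 1.02% of all windows. Of 22 mesenchymal genes 7 moved in opposite directions, 4 with a rise in A549 and 3 with a fall. Both lines reached log2 0.32 in 4 of the 7. LOXL2, which crosslinks collagen, rose from 219 ± 6.06 to 327 ± 4.66 CPM in A549 and fell from 512 ± 8.07 to 376 ± 3.42 CPM in H1650 (interaction log2 1.02, SE 0.05, edgeR adjusted p = 2.24e-18). FN1, the matrix protein fibronectin, did the opposite, from 1339 ± 55.6 to 956 ± 95.2 CPM and from 672 ± 12.1 to 1611 ± 75.4 CPM (interaction log2 -1.75, SE 0.06, edgeR adjusted p = 3.22e-21).

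Epithelial genes moved in opposite directions in 6 of 21, 5 of them (ELF3, EPCAM, JUP, KRT18 and KRT8) with a fall in A549. In 0 of the 6 did both lines reach log2 0.32. ELF3, an epithelial transcription factor, fell from 69 ± 2.38 to 56.7 ± 0.58 CPM in A549 and rose from 30.9 ± 0.301 to 54.7 ± 3.87 CPM in H1650 (interaction log2 -1.10, SE 0.07, edgeR adjusted p = 1.18e-14). KRT19 was the exception, with a rise from 97.9 ± 1.23 to 121 ± 5.09 CPM in A549 and a fall from 1304 ± 5.6 to 625 ± 22 CPM in H1650 (interaction log2 1.37, SE 0.05, edgeR adjusted p = 7.27e-21). Neither the epithelial nor the mesenchymal genes therefore moved as a block in either line. Cytosolic ribosomal proteins had a called interaction in 20 of 44, 18 of them with the higher change in A549, by small amounts (median 0.10). RPLP0, with the largest interaction of these, measured 1831 ± 9.99 and 1918 ± 6.6 CPM in A549 and 1118 ± 18.8 and 852 ± 31.9 CPM in H1650, and ribosomal protein counts are uncertain because of their many processed pseudogenes. Of 29 oxidative phosphorylation genes 8 had a called interaction.

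**Figure D4:**
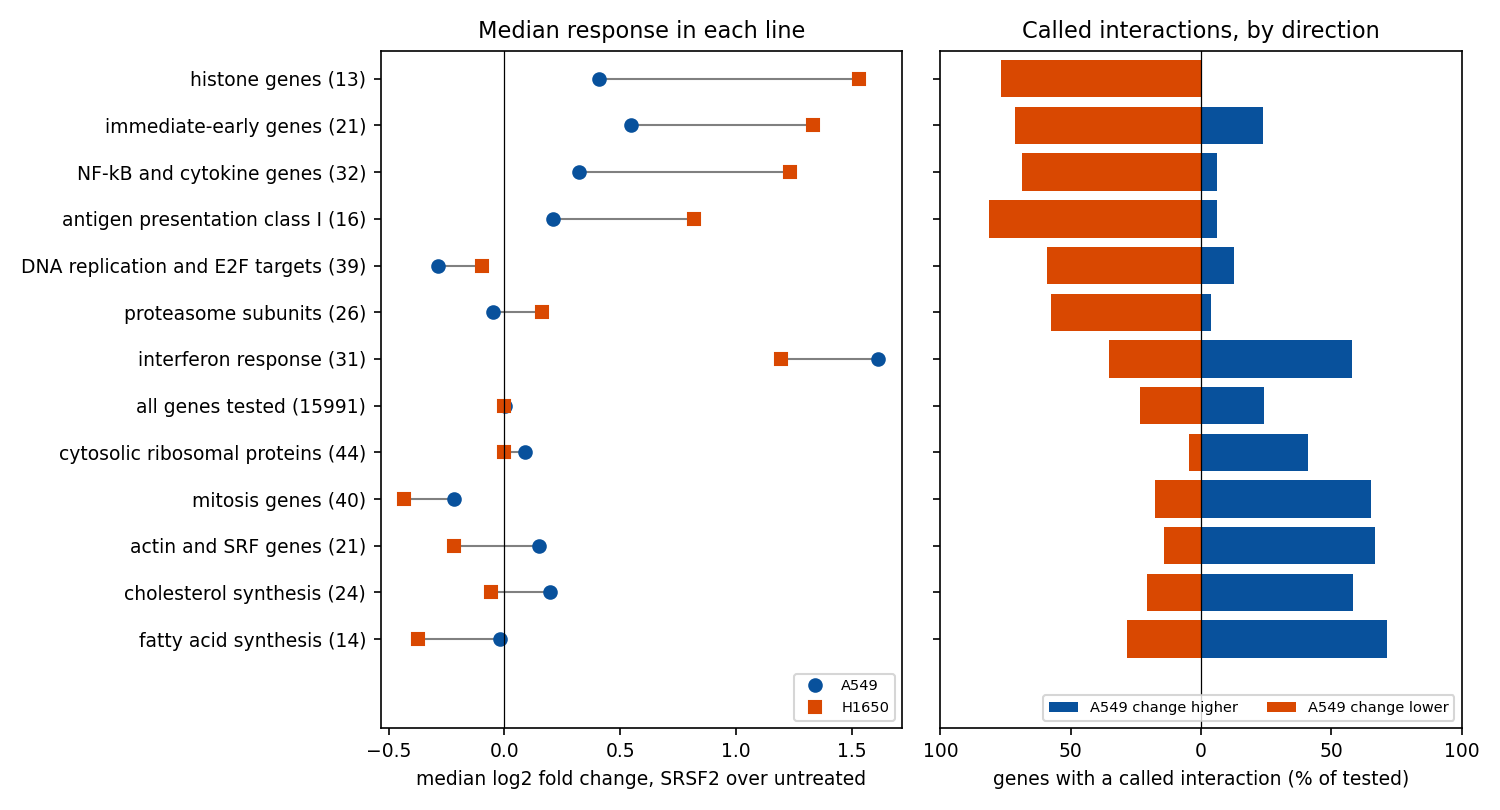
The left panel gives the median log2 fold change of SRSF2 over untreated cells in A549 (circles) and H1650 (squares) for 12 groups of genes and for all genes tested, with the number tested in brackets. The right panel gives the percentage of each group with a called interaction, to the right where the change was higher in A549 and to the left where it was lower; histone genes have none to the right.

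The untreated level of the genes differed by class. This is a description, because the untreated libraries enter both the classes and the levels. Among all genes tested 18.8% were at least 2-fold higher in untreated H1650 and 20.8% at least 2-fold higher in untreated A549. Of the 139 genes that rose in A549 and fell in H1650 by at least log2 0.32 in each, 73 (52.5%) were at least 2-fold higher in untreated H1650 and 13 (9.35%) in untreated A549, with a median difference of 1.05 on the log2 scale (H1650 minus A549). Of the 100 genes that fell in A549 and rose in H1650, 60 were at least 2-fold higher in untreated A549 and 15 in untreated H1650, with a median of -1.53. These medians were 0.655 and -1.026 when the genes were chosen on log2(FPKM + 0.1). In both patterns the line with more of the transcript thus more often lost it and the line with less more often gained it. Without the minimum size this lean was weaker. Of the 501 genes that then rose in A549 and fell in H1650, 31.7% were at least 2-fold higher in untreated H1650 and 11.8% in untreated A549 (median 0.42). For the 454 of the reverse pattern the shares were 11.7% and 29.1% (median -0.30). The minimum size also picked lower genes, with a median in untreated A549 of 6.31 against 42.2 CPM in the first pattern. The distance between the lines was smaller with SRSF2 than without in 86 of the 139 genes (61.9%) and 65 of the 100 (65%), compared with 46.8% of all genes. Without the minimum size the shares were 52.3% and 51.5%. For genes that move in opposite directions this follows largely from which line was higher untreated, so it is no separate result.

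The other classes did not all lean this way. Of the 102 genes that rose at least 2-fold in H1650 only, with the A549 interval within the bound, 48 were at least 2-fold higher in untreated A549. Another 9 were so in untreated H1650. Of the 106 genes that rose in both lines and by more in A549, 68 were at least 2-fold higher in untreated H1650 and 3 in untreated A549. Of the 89 genes that fell at least 2-fold in H1650 only, within the same bound, 24 were higher in untreated H1650 and 18 in untreated A549. The 700 genes that rose in both lines and by more in H1650 ran the other way, with 162 higher in untreated H1650 and 86 in untreated A549, and the gap was narrower after SRSF2 in 29.9% of them. Of the 626 that fell in both and by more in H1650, 88 were higher in untreated H1650 and 112 in untreated A549. The 8 genes that fell by 1.5-fold or more in A549 only, within the bound, also ran the other way, with 5 higher in untreated H1650 and 0 in untreated A549. Among the named genes that moved in opposite directions or in 1 line only, the largest untreated differences with H1650 higher were those of VTCN1 (40.5 ± 2.62 against 0.486 ± 0.138 CPM) and CPA4 (425 ± 15.3 against 7.55 ± 0.587 CPM). Those with A549 higher were PLA2G4A, with 9582 counts in untreated A549 and 3 in untreated H1650, and TPPP3, with 771 and 0. A gene near 0 can only stay or rise, so levels close to 0 limit which class a gene can enter: 29 of the 100 genes that fell in A549 and rose in H1650 were under 1 CPM in untreated H1650, and 20 of the 139 of the reverse pattern were under 1 CPM in untreated A549.

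The length of the gene on the genome, introns included, also differed by class, and it was used neither in the test nor in the classes. The median span was 31.4 kb for all genes tested. It was 89.8 kb for the 501 genes that rose in A549 and fell in H1650 and 23.8 kb for the 454 of the reverse pattern. Genes that rose in A549 only had a median of 52.6 kb and those that fell 20.6 kb. In H1650 only, the order was the other way, with 27.6 kb for rises and 48.9 kb for falls.

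Genes with a mean of at least 5 CPM were ordered by span into 5 groups of 2160, and the median response of A549 went from -0.04 in the shortest genes (up to 12.2 kb) to 0.04 in the longest (over 103.9 kb). In H1650 it went from 0.05 to -0.11. The sign of a single group's median depends on the scaling, since plain library totals move the median of all genes in H1650 to -0.079, but the difference between groups within a library does not. Interactions with the higher change in A549 made up 19.8% of the shortest group and 44.6% of the longest, and those with the lower change 36.9% and 20.2%. The difference of medians between the longest and the shortest group was 0.078, 0.087 and 0.075 in the SRSF2 libraries of A549 and -0.087, -0.205 and -0.148 in those of H1650, each against the untreated mean of its line. In untreated libraries it lay between -0.026 and 0.023, so the SRSF2 libraries of each line stood outside the untreated ones, on opposite sides. Each untreated library is part of the mean it is set against, which draws its value towards 0. The untreated range is therefore not an even yardstick for the SRSF2 libraries. The shifts are small beside those of the genes named above. Whether reads within introns were counted is not given in the sources used here, and the part of intron reads, RNA quality or other features that go with gene length was not tested.

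**Figure D5:**
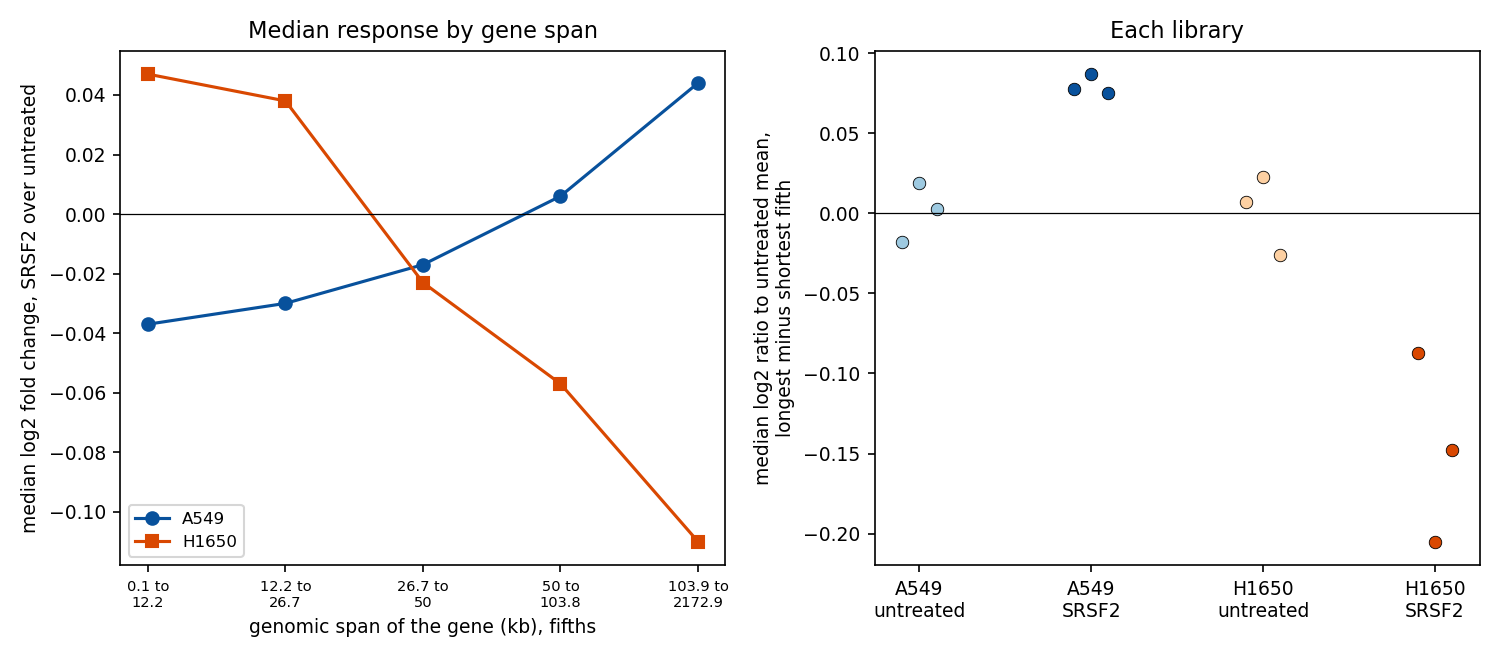
The left panel plots the median log2 fold change of SRSF2 over untreated cells in each line for 5 groups of 2160 genes ordered by genomic span in kb; A549 rises from -0.04 to 0.04 and H1650 drops from 0.05 to -0.11. The right panel gives, for each library, the median log2 ratio to the untreated mean of its line in the longest group minus that in the shortest; the 3 SRSF2 libraries lie above 0.07 in A549 and below -0.08 in H1650.

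Promoter motifs were also counted by class. The AP-1 letters TGANTCA were in 10 of 101 windows of genes that rose in A549 and fell in H1650 by at least log2 0.32 (9.9%) and in 4.87% of all windows, and in 3 of 75 windows of the reverse pattern (4%), both strands searched. Without the minimum size the first pattern held them in 23 of 390 windows (5.9%), near the share of all windows. With the bounded interval for the other line, CCAAT on either strand was in 40.9% of the windows of genes that rose in H1650 only and in 31.5% of those that fell in H1650 only, compared with 35.7% of all windows. The E2F-like letters were in 31 of 210 windows (14.8%) of genes that fell in A549 only. These are counts of letters in these windows, and no test was made.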

How the data were processed

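Polyadenylated RNA of 12 libraries, 3 in each of 4 groups, was sequenced. Per the submitters' processing notes, the tools were featureCounts 2.0.0, STAR 2.7.7a and fastp 0.20.1, and the build was GRCh38. The annotation release, strandedness and whether introns were counted are not given in the sources used here. The authors deposited a matrix of raw gene counts, which the tests used, and a matrix of FPKM values, used only as an alternative. The authors' FPKM divides counts by a gene length that equals the genomic span for 11519 of 16139 genes compared (71.4%). Symbols came from a name table for 15030 genes and from GENCODE 29 for 63, and 1506 had none. All per-sample columns were used.

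Counts were fitted with edgeR 4.0.16 in R 4.3.3 (trimmed-mean scaling, filterByExpr over the 4 groups, quasi-likelihood test, Benjamini-Hochberg adjustment over 15991 genes, threshold 0.05), with 1 model over all libraries. All adjusted p-values are from it. A gene was in opposite directions, or in 1 line only, by its interaction call and its calls in each line. CPM values use the scaled library sizes, except that the sums of cell type markers use plain library totals. The script was tested on simulated data with known changes. Total counts per library ran from 23876899 to 32079027. The labels give no batch. Replicates differed by more than sampling noise and were all kept.

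The genes named had a symbol and at least 5 CPM in the highest group. They were, for each opposite pattern, the 10 with the largest smaller change of the lines, for each 1-line pattern the 8 with the largest change, for each same-direction pattern the 4 with the largest interaction, and up to 4 by adjusted p in each of 41 gene lists, of which those that bear on the split are given. In the opposite patterns the SRSF2 libraries also had to lie apart from the untreated ones in both lines. In the 1-line patterns this was required in the responding line. Members of lists named to spell out a count, and PCNA, TYMS, EGR1 and HMGCS1, were named after their values were seen. The classes and lists were chosen with earlier results of these data known. Alternatives were other size factors, DESeq2 1.42.0, other filters, limma 3.58.1 on weighted counts and on log2 FPKM with pseudocounts of 1 and 0.1, each line fitted alone, other thresholds, a replicate block and each library left out.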

Additional observations from a re-analysis of the deposited data

Results flagged for a closer look

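The following genes are listed because their response to SRSF2 had opposite signs in A549 and H1650, a difference tested by the interaction term (edgeR, adjusted over all genes). With the rise in A549, the interaction on the log2 scale was 3.19 for IRF7, 2.87 for VTCN1, 2.17 for HAS3, 2.06 for CPA4, 2.03 for GPR132, 1.70 for BMF, 1.68 for KIRREL3, 1.68 for ABCA1, 1.55 for LINC02870 and 1.46 for PMP22. With the fall in A549, it was -4.88 for SOX8, -3.28 for RAET1G, -2.82 for PLA2G4A, -2.79 for LGR6, -2.73 for AQP3, -2.19 for CRB3, -2.01 for ST8SIA4, -1.78 for KIAA0040, -1.74 for RASAL1 and -1.47 for EFHD1. The values of SOX8, PLA2G4A and LGR6 rest on 2, 3 and 15 counts in untreated H1650 and depend on the small count that the fit adds.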

How the results depend on the processing

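The number of genes with a called interaction was 7601, between 6011 (adjusted p under 0.01) and 7809 (log2(FPKM + 1)) over the alternatives, and 7149 to 7654 when 1 library was left out. Genes that rose in A549 and fell in H1650 by at least log2 0.32 numbered 139, but 19 with log2(FPKM + 1), 71 with log2(FPKM + 0.1), 501 with no minimum fold and 30 at 1.5-fold; those of the reverse pattern numbered 100, but 7, 35, 454 and 27. With 1 library left out these counts were 122 to 139 and 80 to 107. Responses in A549 only numbered 640, and 1047 with log2(FPKM + 1); with the bounded interval they numbered 477, and 1018 and 818 with the pseudocounts of 1 and 0.1. A pseudocount compresses the changes of genes with low FPKM, which can be genes of low count or of long span. Its part in these counts was not tested. The median untreated difference of the first opposite pattern, 1.049, was 0.809 with plain totals, 0.924 with DESeq2, 0.656 and 0.655 with FPKM, 0.95 with each line fitted alone and 0.808 to 1.103 with 1 library left out. That of the second, -1.53, was -1.69 with plain totals, -1.208 with a stricter filter, -1.435 and -1.026 with FPKM, -1.346 at adjusted p under 0.01 and -1.758 to -1.254 with 1 library left out; the cause was not tested. On log2(FPKM + 1) the interaction changed sign for CAVIN2 (0.045), IFI44L (-0.319), IQCA1 (0.004), XAF1 (-0.482) and XYLT1 (0.017). On log2(FPKM + 0.1) it did so for IFI44L (-0.014), IQCA1 (0.016) and XYLT1 (0.012). All of these genes were much lower in 1 line than in the other. PCNA, whose interaction was not called, ranged from -0.026 (without the first SRSF2 library of H1650) to 0.078 with 1 library left out. With a replicate block 7624 interactions were called; same-numbered replicates did not deviate together (correlations from -0.0197 to 0.0237), and were therefore treated as unpaired.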
